A study of Mus musculus with 4 samples.

Results

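Interferon-stimulated genes are the genes that a cell switches on after an interferon has bound its receptor, and 38 of them, listed by symbol, were followed in the mammary gland of mice with and without the microRNA miR-21. The rule names symbols from the antiviral and signalling genes of this programme and uses no measured value, although it was written with earlier results of these data known. Of the 38 symbols 37 were found in the deposited table, each at 1 locus, out of 22483 loci that carry a gene name and 30506 loci in all. Ifi27 was not found under its symbol.

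The study asked which transcripts of the mammary gland depend on miR-21, by mRNA sequencing of whole glands from 4 mice aged 2 months. The group called miR-21+/+ carried both intact alleles and the group called miR-21-/- carried none, both on a mixed 129SV::FVB/N::C57BL/6 strain, with 2 mice in each. The labels give the genotype of the whole animal and name no Cre driver that would limit the deletion to 1 cell type, and a whole gland holds epithelium, fat, vessels and immune cells together. The table holds a single combined value per genotype, as fragments scaled by transcript length and by the fragments mapped in all (FPKM), so no difference here has a replicate check, and none was tested.

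Interferons of type I and type III signal through the kinases JAK1 and TYK2 to a complex with STAT2 and IRF9 that binds a DNA element called the interferon-stimulated response element (ISRE). Interferon-γ acts through another element, the gamma-activated site (GAS). The genes so induced detect viral RNA and DNA, block the entry, copying and release of viruses, and feed back on the pathway, and many of them are also held at a low level in uninfected tissue.

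Both DNA elements were found in the promoter windows of members of the group. RefSeq promoter windows of 250 bases before to 50 bases after a gene's start (build GRCm38.p6) were given for 29 of the members, and a gene with several windows was counted once. The core of the ISRE, searched as GAAA, any 2 bases and GAAA again and counted on both strands with overlaps, was present in 17 of the 29 (58.6%), against 1079 of all 27025 genes with a window (3.99%). The GAS, spelled TTCNNNGAA, which reads the same on both strands, was present in 10 of the 29 (34.5%), against 2582 of all genes (9.55%). These counts include matches that do not lie wholly before the start. Such were the ISRE cores of Ifih1, Ddx58, Eif2ak2 and Ifitm3 and the GAS of Ifitm3 and Ifi35. The stretches below are from members whose values are described further on, and capitals mark the matches to the ISRE core, which overlap one another in Isg15, Bst2, Oas1a and Oas1g and read TTTC on the opposite strand in Ifit1 and Gbp2.
Isg15 (chr4:156200865-156200906, minus strand): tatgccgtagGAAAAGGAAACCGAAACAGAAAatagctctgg
Bst2 (chr8:71537577-71537612, minus strand): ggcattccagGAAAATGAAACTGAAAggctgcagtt
Oas1a (chr5:120907526-120907555, minus strand): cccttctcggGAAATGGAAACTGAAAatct
Oas1g (chr5:120887614-120887641, minus strand): cccttctcggGAAATGGAAACTGAAAat
Oas3 (chr5:120777715-120777744, minus strand): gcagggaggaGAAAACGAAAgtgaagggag
Ifit1 (chr19:34640775-34640823, plus strand): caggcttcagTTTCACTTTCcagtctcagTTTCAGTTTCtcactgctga
Gbp2 (chr3:142620594-142620623, plus strand): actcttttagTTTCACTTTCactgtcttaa
Igtp (chr11:58199512-58199541, plus strand): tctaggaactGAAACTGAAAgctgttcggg

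The stretch of Isg15 held 3 overlapping cores, the first of them 78 bases before the start. The promoters of Oas1a and Oas1g carried the same run of letters 20 and 18 bases before their starts, and their whole windows were identical at 207 of 298 compared positions (69.5%). GAS matches are shown for the members below, where capitals mark the element. In Bst2 it runs into the ISRE core printed above.
Irf8 (chr8:120736177-120736223, plus strand): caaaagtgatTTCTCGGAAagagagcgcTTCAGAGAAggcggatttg
Irf1 (chr11:53769914-53769942, plus strand): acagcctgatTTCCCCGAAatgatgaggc
Bst2 (chr8:71537590-71537618, minus strand): tctaggggcaTTCCAGGAAaatgaaactg

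Both elements were found in the windows of Oas1a, Eif2ak2, Bst2, Ifitm3 and Igtp, 5 of 29, against 0.614% of all genes. The window of Irf7 held neither spelling. A match describes letters in the window and no match says only that these letters are not in it. Mx1, Mx2, Oas2, Usp18, Dhx58, Zbp1, Iigp1, Ifi27 and Parp14 had no entry in the table of windows.

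The microRNA itself is shown because its seed, bases 2 to 8, sets which messenger RNAs it can pair with. In the RefSeq sequence of mmu-miR-21a-5p, at chr11:86584120-86584141 on the minus strand of GRCm38.p6, capitals mark the seed.
mmu-miR-21a-5p: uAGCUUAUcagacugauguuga
The reverse complement of that seed, ATAAGCT, was found in the 3′ untranslated region (UTR) of 2 of the 37 members (5.41%), against 1213 of 19915 genes with an annotated 3′ UTR (6.09%). These were Dhx58 and Rsad2, shown in mm9 with the match in capitals at chr11:100556154-100556160 and chr12:27127786-27127792, both on the minus strand.
Dhx58: attgatggaaaATAAGCTtcattagtgtg
Rsad2: gatgttgtttcATAAGCTattattagaca
The match of Rsad2 is followed by an A and that of Dhx58 is not. The median length of the 3′ UTR was 853 bases over the members and 893 bases over all genes. Both members were lower in miR-21-/- glands, as were 55.7% of the loci with a gene name and a mean of at least 1 FPKM. The log2 ratio was −0.34 for Dhx58 and −0.29 for Rsad2.

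As a group the interferon-stimulated genes were expressed and stood slightly lower in miR-21-/- glands. All 37 had a mean of at least 1 FPKM over the genotypes, from 2.12 FPKM for Oas3 to 233 FPKM for Ifitm3, with a median of 11.5 FPKM. The log2 ratio of miR-21-/- over miR-21+/+ glands was below 0 for 32 of the 37 members (86.5%), where 55.7% of the 13301 named loci with a mean of at least 1 FPKM had a ratio below 0. The median of the members was −0.28, with quartiles of −0.43 and −0.12, and the median of the named loci was −0.03, with quartiles of −0.17 and 0.11. The members summed to 1029 FPKM in miR-21+/+ glands and to 902 FPKM in miR-21-/- glands.

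Few of these differences were wide. At least 1.5-fold lower were 4 members (10.8%), Irf7, Oas2, Bst2 and Irf8, beside 5.83% of the named loci, and no member was at least 1.5-fold higher, beside 5.03%. Nearest to that limit were Irf8 inside it, at −0.73, and Oas1a outside it, at −0.58. At the narrower limit of 0.32 on the log2 scale 17 members (45.9%) were lower, beside 13.7% of the named loci, and 1 member (2.70%), Iigp1, was higher, beside 10.6%. At 2-fold Irf7 alone was lower, beside 2.15%, and no member was higher, beside 1.71%. Among loci with a mean of at least 5 FPKM, 4 of 32 members (12.5%) were at least 1.5-fold lower, beside 3.74%, and none was higher, beside 3.3%.

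The size of these counts depended on how the libraries are scaled. Over all loci the deposited FPKM values sum to 759295 in the miR-21+/+ column and to 1175603 in the miR-21-/- column, but over the named loci they sum to 380567 and 355385. With equal sums over all loci every log2 ratio shifts by −0.63, 35 members and 64.7% of the named loci become at least 1.5-fold lower, and all 37 members are below 0, Iigp1 at −0.13 among them. With equal sums over the named loci 28 of 37 members and 35.5% of the named loci are below 0, and Irf9, Eif2ak2, Ifi35 and Parp14 come to lie just above 0. A scaling adds the same shift to every locus, so by construction it leaves the distance of −0.25 between the median of the members and that of the named loci as it is. The values that follow are as deposited, with log2 ratios of miR-21-/- over miR-21+/+ in parentheses.

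**Figure D1:**
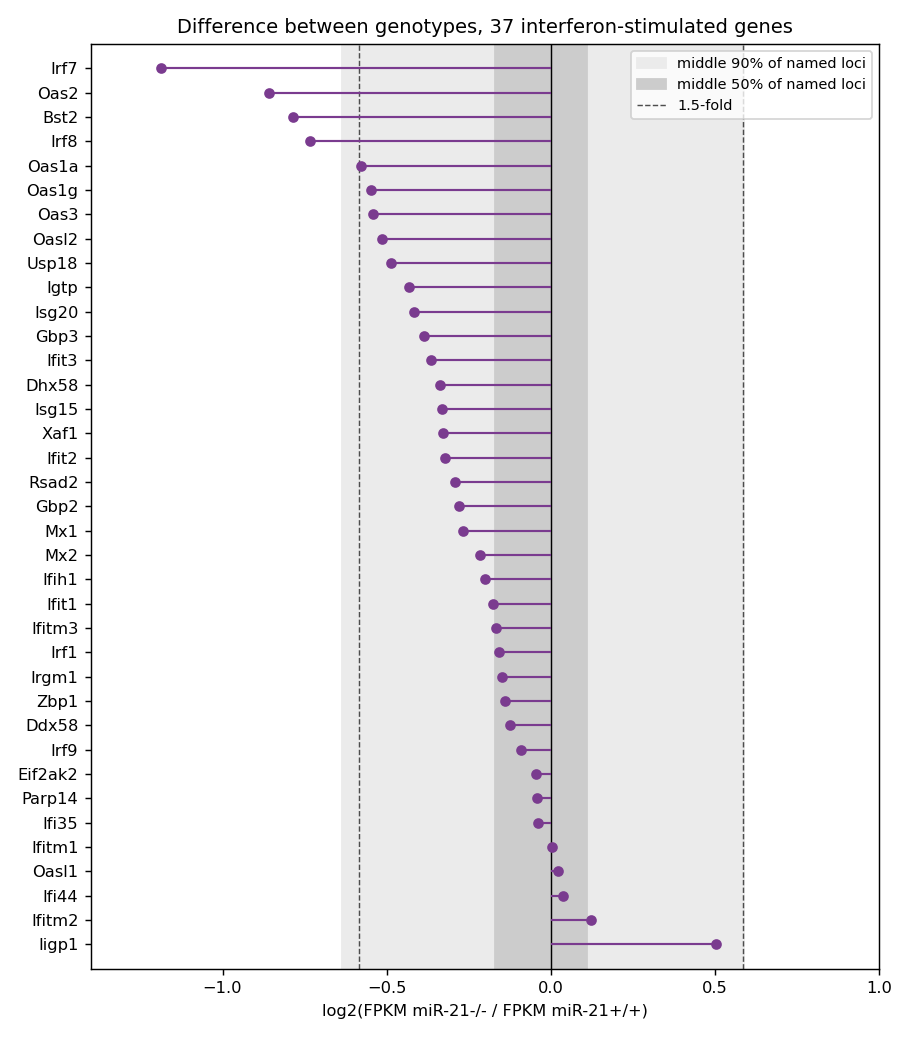
Log2 ratio of the combined FPKM value in miR-21-/- over that in miR-21+/+ glands (x axis) for each of the 37 interferon-stimulated genes (y axis, in order of the ratio). Each point is 1 locus and has no error bar because there is 1 value per genotype, the shaded bands hold the middle 50% and 90% of the named loci, and dashed lines mark 1.5-fold. Irf7 is at −1.19, the other members past 1.5-fold are Oas2, Bst2 and Irf8, and Iigp1 is at 0.50.

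The interferon regulatory factors held the member with the lowest ratio. Irf7, the factor that amplifies the type I interferon response by switching on the interferon genes, was at 46.1 FPKM with miR-21 and 20.2 FPKM without it. Its level was thus less than that of Irf9 and Irf1 in miR-21-/- glands and above both in miR-21+/+ glands. Its log2 ratio was −1.19, and 1.58% of the named loci had a lower one. The locus lies on chromosome 7 at 148449081 to 148452378 (mm9), and the 9 other named loci within 100 kb had log2 ratios from −0.30 to 0.71 with a median of 0.10, none of them 1.5-fold lower.

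Irf8, a factor needed in myeloid, dendritic and B cells, was at 7.93 FPKM in miR-21+/+ glands and 4.77 FPKM in miR-21-/- glands, a log2 ratio of −0.73. Its 2 GAS matches are shown above. Irf1, an early target of interferon-γ whose promoter carries the GAS shown above, was at 28.1 FPKM in miR-21+/+ against 25.2 FPKM in miR-21-/- glands, a log2 ratio of −0.16. Irf9, the DNA-binding part of the complex with STAT2, was at 31.5 FPKM with miR-21 and 29.6 FPKM without it, a log2 ratio of −0.09, at a locus that the table merges with Rnf31. The 4 factors therefore split into 2 that were past 1.5-fold and 2 that were within 0.2 of 0 on the log2 scale.

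The oligoadenylate synthetases, which answer double-stranded RNA by making the messenger that activates RNase L, were the role group with the lowest median, −0.54. Of the 6 synthetases 5 were below 0, beside 55.7% of the named loci. Oas2 was at 17.6 FPKM in miR-21+/+ glands and 9.69 FPKM in miR-21-/- glands, a log2 ratio of −0.86, a locus where the authors' own test is marked as failed. Oas1a was at 12.1 FPKM in miR-21+/+ against 8.13 FPKM in miR-21-/- glands (−0.58). Oas1g, whose coding sequence is 95.4% identical to that of Oas1a over 1122 bases, was at 5.44 FPKM with miR-21 and 3.72 FPKM without it (−0.55). Since reads may be shared between these near-identical copies, their separate levels are uncertain.

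Oas3 had the lowest mean level of the members, 2.52 FPKM in miR-21+/+ glands and 1.73 FPKM in miR-21-/- glands, and a log2 ratio of −0.54. Oas2, Oas3, Oas1g and Oas1a lie together on chromosome 5 with Oas1c and Oas1b, and these 6 loci had log2 ratios between −0.86 and −0.38. Of the 3 remaining named loci within 100 kb, chosen for naming after their values were seen, Dtx1 was at −0.81, Ddx54 at 0.16 and Rasal1 at 1.33. The pair of synthetase-like genes lies elsewhere on the chromosome and differed within itself. Oasl2, which keeps the enzyme activity, was at 30.1 FPKM in miR-21+/+ against 21.1 FPKM in miR-21-/- glands (−0.51). Oasl1, which lacks it and limits the translation of Irf7, was at 5.61 FPKM with miR-21 and 5.69 FPKM without it (0.02). The 5 other named loci within 100 kb of this pair were between −0.08 and 0.04.

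**Figure D2:**
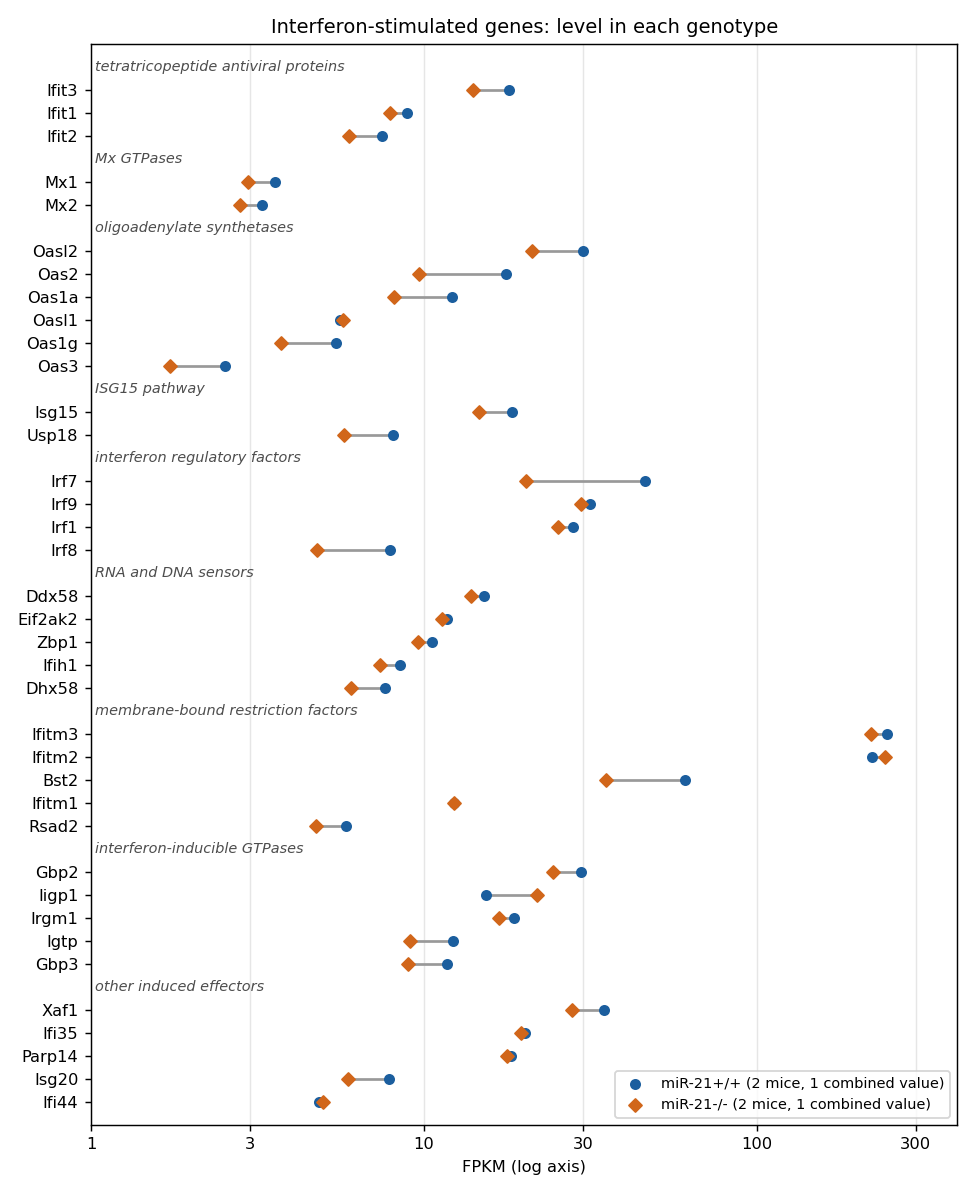
Combined FPKM value (x axis, log scale) of each of the 37 members in miR-21+/+ and miR-21-/- glands, 1 point per genotype, in role groups (y axis). Levels ran from 1.73 FPKM for Oas3 in miR-21-/- glands to 246 FPKM for Ifitm3 in miR-21+/+ glands, and for most members the points of the genotypes lie close together.

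The membrane-bound restriction factors, which stop viruses at the cell surface and at internal membranes, did not move as 1 block. Ifitm3, Ifitm2 and Bst2 were the 3 most abundant members, while Ifitm1 and Rsad2 had lower levels. Bst2, or tetherin, which holds budding virus at the cell surface and in mice also marks plasmacytoid dendritic cells, was at 60.8 FPKM in miR-21+/+ glands and 35.3 FPKM in miR-21-/- glands, a log2 ratio of −0.79. This was lower than in all but 3.43% of the named loci. Of the 13 other named loci within 100 kb of Bst2 on chromosome 8, 11 were below 0, beside 55.7% of the named loci, with a median of −0.18. At least 1.5-fold lower were 3, beside 5.83% of the named loci. These were Slc27a1 at −1.45 and Nxnl1 in 2 rows at −0.92 and −1.19, named here after their values were seen.

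Ifitm3, which blocks virus entry by fusion, was the most abundant member, at 246 FPKM in miR-21+/+ against 219 FPKM in miR-21-/- glands (−0.17). Ifitm2, at a locus merged with Ifitm5, was at 222 FPKM with miR-21 and 242 FPKM without it (0.12). Ifitm1 was at 12.3 FPKM in miR-21+/+ glands and 12.3 FPKM in miR-21-/- glands (0.00), so its levels were equal to the printed digit. These coding sequences resemble one another, 82.8% between Ifitm3 and Ifitm2, and Ifitm1 matches the predicted gene Gm7676 at 97.5% over 321 bases, which makes the split of reads between them uncertain. Rsad2, or viperin, which makes a nucleotide that stops viral RNA synthesis, was at 5.82 FPKM in miR-21+/+ against 4.75 FPKM in miR-21-/- glands (−0.29).

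The antiviral proteins with tetratricopeptide repeats, which bind viral RNA, were all lower, beside 55.7% of the named loci, with a median of −0.32. Ifit3 was at 18.1 FPKM with miR-21 and 14.0 FPKM without it (−0.37). Ifit2 was at 7.46 FPKM in miR-21+/+ glands and 5.97 FPKM in miR-21-/- glands (−0.32). Ifit1, whose promoter holds a pair of separate ISRE cores, was at 8.92 FPKM in miR-21+/+ against 7.90 FPKM in miR-21-/- glands (−0.18). None of the 3 reached 1.5-fold. The coding sequence of Ifit3 is 99.0% identical over 1208 bases to that of the neighbouring I830012O16Rik, which was itself at 9.47 FPKM with miR-21 and 7.77 FPKM without it (−0.28), so the level of each is uncertain.

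The Mx GTPases, which trap the nucleocapsids of influenza and related viruses, were among the members of low level. Mx1 was at 3.57 FPKM in miR-21+/+ glands and 2.97 FPKM in miR-21-/- glands (−0.27). Mx2 was at 3.26 FPKM in miR-21+/+ against 2.80 FPKM in miR-21-/- glands (−0.22), and the coding sequences of this pair are 95.1% identical over 904 bases.

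Isg15, the ubiquitin-like protein that is attached to other proteins during the response and whose promoter holds the 3 overlapping cores, was at 18.4 FPKM with miR-21 and 14.6 FPKM without it (−0.33). Usp18, the protease that removes Isg15 and dampens the type I receptor, was at 8.07 FPKM in miR-21+/+ glands and 5.76 FPKM in miR-21-/- glands (−0.49). Both were thus lower by less than 1.5-fold.

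The sensors of foreign nucleic acid were all below 0 by small amounts as deposited, beside 55.7% of the named loci. Their median was −0.14, and Eif2ak2 turns to 0.05 with equal sums over the named loci. Dhx58, or LGP2, was at 7.66 FPKM in miR-21+/+ against 6.05 FPKM in miR-21-/- glands (−0.34), the lowest ratio of the 5 and a member with a match to the miR-21 seed. Ifih1, or MDA5, which binds long double-stranded RNA, was at 8.49 FPKM with miR-21 and 7.38 FPKM without it (−0.20). Ddx58, or RIG-I, which binds RNA with a triphosphate end, was at 15.1 FPKM in miR-21+/+ glands and 13.9 FPKM in miR-21-/- glands (−0.12). Zbp1, which binds the left-handed form of nucleic acids, was at 10.6 FPKM in miR-21+/+ against 9.62 FPKM in miR-21-/- glands (−0.14). Eif2ak2, or PKR, the kinase that halts translation, was at 11.7 FPKM with miR-21 and 11.3 FPKM without it (−0.05). The sensors therefore sat nearer to the median of the named loci than the synthetases did.

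The interferon-inducible GTPases, which attack vacuoles that hold bacteria and parasites and answer mainly to interferon-γ, did not share a direction as deposited. Igtp was at 12.2 FPKM in miR-21+/+ glands and 9.07 FPKM in miR-21-/- glands (−0.43). Gbp3 was at 11.7 FPKM in miR-21+/+ against 8.95 FPKM in miR-21-/- glands (−0.39), and Gbp2 was at 29.5 FPKM with miR-21 and 24.3 FPKM without it (−0.28). Irgm1, which regulates the other GTPases of its family, was at 18.6 FPKM in miR-21+/+ glands and 16.8 FPKM in miR-21-/- glands (−0.15). Iigp1 was the member with the highest ratio, at 15.4 FPKM in miR-21+/+ against 21.8 FPKM in miR-21-/- glands, a log2 ratio of 0.50 as deposited, above 93.6% of the named loci, and of −0.13 with equal sums over all loci. The other 4 GTPases of the list were all below 0, beside 55.7% of the named loci. The closest other coding sequence is 83.4% identical for Gbp2, with Gbp1, and 86.1% for Iigp1, with Gm4951.

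Among the other induced effectors, Isg20, an exonuclease that degrades RNA, was at 7.86 FPKM with miR-21 and 5.89 FPKM without it (−0.42). Xaf1, which promotes cell death by opposing an inhibitor of apoptosis, was at 34.8 FPKM in miR-21+/+ glands and 27.7 FPKM in miR-21-/- glands (−0.33). Ifi35, Parp14 and Ifi44 were each within 0.05 of 0 on the log2 scale. Ifi35 was at 20.1 FPKM in miR-21+/+ against 19.5 FPKM in miR-21-/- glands, Parp14, which attaches ADP-ribose to proteins, at 18.3 FPKM with miR-21 and 17.7 FPKM without it, and Ifi44 at 4.84 FPKM in miR-21+/+ glands and 4.96 FPKM in miR-21-/- glands. A locus named Ifi27l1, for which a RefSeq table gives Ifi27 as another name, was at 235 FPKM in miR-21+/+ against 169 FPKM in miR-21-/- glands (−0.47) and was not counted as a member.

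Members with and without the DNA elements had medians close to each other. The median log2 ratio was −0.29 over the 17 members with an ISRE core and −0.24 over the 12 without one. It was −0.37 over the 10 members with a GAS and −0.28 over the 19 without. The medians differed by less than 0.1 in each case, and the member with the lowest ratio, Irf7, had neither element in its window.

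**Figure D3:**
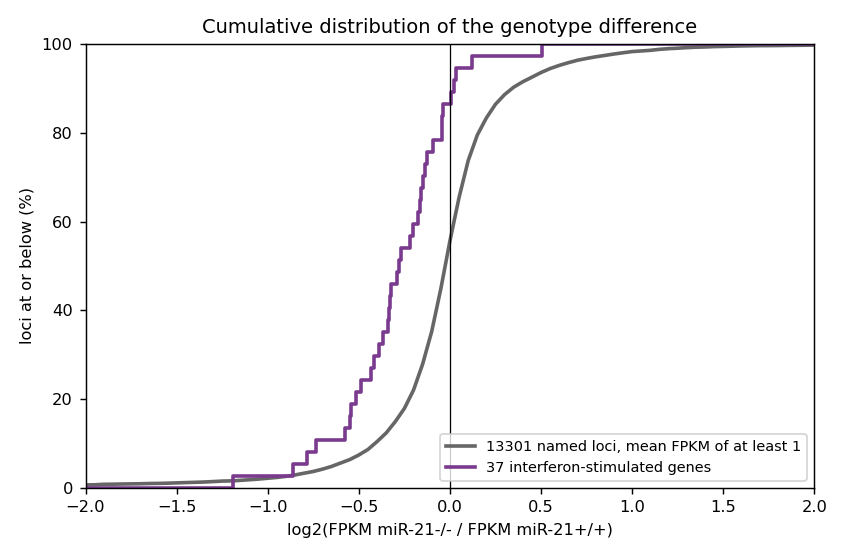
Percent of loci (y axis) with a log2 ratio of miR-21-/- over miR-21+/+ at or below the value on the x axis, for the 37 interferon-stimulated genes and for the 13301 named loci with a mean of at least 1 FPKM. The curve of the members lies to the left, with 86.5% of members and 55.7% of named loci below 0, and the medians are −0.28 and −0.03.

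The ligands of the pathway were near or at 0. Of 21 interferon genes listed, 19 were found, none had a mean of 1 FPKM, 13 were listed at 0 in both genotypes and 2 in one of them, and the highest value was 0.116 FPKM. An FPKM table without counts does not give the depth, so a listed 0 is not a statement that no transcript was present.

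The receptors and signal transducers were lower at 13 of 17 loci (76.5%), beside 55.7% of the named loci, with a median of −0.18. Past 1.5-fold was 1 locus in each direction, beside the 5.83% and 5.03% of the named loci given above. Stat2, the partner of Irf9 in the type I response, was at 18.4 FPKM with miR-21 and 14.9 FPKM without it (−0.31). The phosphatase Ptpn6, a restraint on signalling in blood cells, was at 16 FPKM in miR-21+/+ against 10.1 FPKM in miR-21-/- glands (−0.67), and Il28ra, the receptor chain for type III interferon found mainly on epithelium, was at 2.49 FPKM in miR-21+/+ glands and 4.24 FPKM in miR-21-/- glands (0.77). The ratio of Stat2 was close to the median of the members.

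Of the genes that sense nucleic acid upstream of interferon, 17 of 21 loci were below 0, beside 55.7% of the named loci, with a median of −0.09. At least 1.5-fold lower were 2 of the 21 (9.52%), beside 5.83%, and none was 1.5-fold higher, beside 5.03%. Tlr7, an endosomal receptor for single-stranded RNA, was at 4.80 FPKM in miR-21+/+ against 2.60 FPKM in miR-21-/- glands (−0.89), and Tlr9, which binds DNA, was at 2.70 FPKM with miR-21 and 1.69 FPKM without it (−0.68). Their shared adaptor Myd88 had the highest ratio of the list, 0.26.

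Interferon-induced genes outside the list of members had wider differences. Of 56 loci, 46 (82.1%) were below 0, beside 55.7% of the named loci, with a median of −0.37. At least 1.5-fold lower were 14 (25%), beside 5.83% of the named loci, and 3 were at least 1.5-fold higher, beside 5.03%. The locus of Ifitm2 and Ifitm5 is in both lists. The lowest ratio was that of Irf4, a factor of lymphocytes and plasma cells, at 43.2 FPKM in miR-21+/+ glands and 15.0 FPKM in miR-21-/- glands (−1.53), a locus where the authors' test is marked as failed. The highest was that of Gbp1, at 3.28 FPKM in miR-21+/+ against 6.83 FPKM in miR-21-/- glands (1.06).

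The chemokines and checkpoint genes that interferon-γ induces went to both ends of the scale, with a median of −0.32. Below 0 were 4 of 7 loci (57.1%), near the 55.7% of the named loci. At least 1.5-fold lower was 1 locus and higher were 2, beside 5.83% and 5.03% of the named loci. Ccl5, a chemokine made by T cells, was at 21.5 FPKM with miR-21 and 4.97 FPKM without it (−2.11). Cxcl10 was at 2.02 FPKM in miR-21+/+ glands and 3.08 FPKM in miR-21-/- glands (0.61), and Ido1, which breaks down tryptophan, was at 3.75 FPKM in miR-21+/+ against 16.1 FPKM in miR-21-/- glands (2.10). In MHC class I processing 10 of 11 loci (90.9%) were below 0, beside 55.7% of the named loci, with a median of −0.20. Ratios ran from −0.73 for Nlrc5, the transactivator of these genes, to 0.13 for Tap2. Nlrc5 was the 1 locus of 11 (9.09%) at least 1.5-fold lower, beside 5.83%.

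The tissue carried the markers of a mammary gland, and the marker lists of B cells and T cells had medians further from 0 than the ratio of any member. Luminal epithelium was marked by Krt19 (223 to 247 FPKM from miR-21+/+ to miR-21-/- glands) and Krt18 (148 to 216 FPKM), and myoepithelium by Acta2 (222 to 341 FPKM) and Krt5 (29.8 to 42.7 FPKM). Summed over the lists, luminal markers went from 752 to 999 FPKM, myoepithelial markers from 369 to 596 FPKM, and adipocyte markers, led by Fabp4 and Lpl, from 12329 to 8929 FPKM. The medians of these 3 lists were 0.48, 0.70 and −0.44, and 9 of 12 luminal, 8 of 8 myoepithelial and 1 of 8 adipocyte loci were above 0. Of all 13301 named loci, 5895 were above 0. Against their lists went the luminal markers Wap (−1.48), Esr1 (−0.50) and Foxa1 (−0.35) and the adipocyte marker Lep (1.29).

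B cell markers were at least 1.5-fold lower at 11 of 12 loci, beside 5.83% of the named loci, with a median of −2.98. They summed to 52.9 and 9.14 FPKM over the 11 loci of a single name, led by Cd79b (12.3 to 2.88 FPKM). Cd79a (70.3 to 48.3 FPKM) is merged with Arhgef1. The median of the T cell markers was −2.22, and their sum, led by Lck and Cd3g, went from 52.3 to 11.6 FPKM. All 11 T cell markers were lower, beside 55.7% of the named loci. Those of lymph node stroma and venules, led by Glycam1 (136 to 4.63 FPKM) and Ltb (13.9 to 2.83 FPKM), went from 166 to 12.9 FPKM, most of it Glycam1, with a median of −2.16 over 5 loci. Which cells of the gland made the Glycam1 transcripts was not tested. Of the 5 loci of this list, 4 were at least 1.5-fold lower, beside 5.83% of the named loci, and Madcam1 was higher (0.576 to 1.56 FPKM, 1.44). In whole tissue fewer cells of a type and less RNA per cell cannot be told apart, and the part of these cells in the lower values of Irf8, Irf7, Bst2 and the other members was not tested.

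Markers of macrophages, led by Lyz2 (381 to 319 FPKM) and Cd68, had a median of −0.03, with no locus of 10 past 1.5-fold in either direction and sums of 1207 and 1140 FPKM. Those of dendritic cells, led by Tcf4 and Zbtb46, summed to 59.5 and 48.0 FPKM over 7 loci. Most of these sums was Tcf4, whose cells of origin in the gland were not tested. Its mean was 30.3 FPKM, where the median locus of the list had 2.42 FPKM. The median log2 ratio was −0.40, and 5 of the 7 were below 0, beside 55.7% of the named loci. Siglech, which marks the plasmacytoid kind that also carries Bst2, was at 2.10 FPKM with miR-21 and 1.47 FPKM without it. The lowest ratio of the list was that of Spib, at 4.35 FPKM in miR-21+/+ glands and 0.485 FPKM in miR-21-/- glands (−3.16). Spib was the 1 locus of the 7 at least 1.5-fold lower, beside 5.83% of the named loci. Whether its transcripts came from dendritic cells or from B cells, whose markers had a median of −2.98, was not tested. Itgax (1.45 to 2.80 FPKM, 0.95) and Cd209a (6.66 to 8.39 FPKM, 0.33) of the same list were higher. Markers of NK cells passed the minimum at 2 of 8 genes, led by Klrd1 (3.10 to 1.43 FPKM) and Gzma (1.01 to 1.51 FPKM), and those of neutrophils, led by Retnlg and Csf3r, at 4 loci with a median of −0.22. Endothelial markers, led by Cdh5 and Pecam1, had a median of 0.07 and those of fibroblasts, led by Col3a1 and Col1a2, a median of −0.16.

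**Figure D4:**
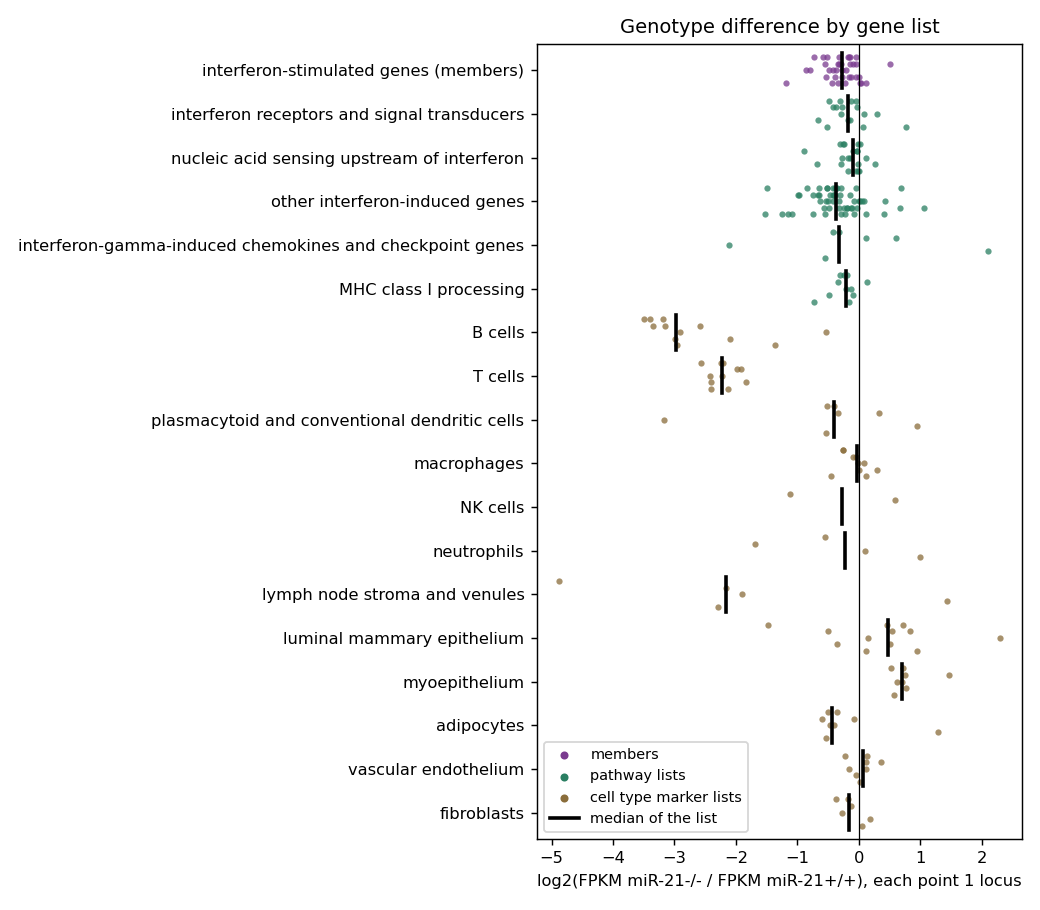
Log2 ratio of miR-21-/- over miR-21+/+ (x axis) for each locus of the members, the pathway lists and the cell type marker lists (y axis), 1 point per locus with the list's median marked and no error bars, as there is 1 value per genotype. The lists of B cells and T cells have medians of −2.98 and −2.22, and the interferon-stimulated genes a median of −0.28.

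The targeted gene does not check the labels here. The locus that holds Mir21 and the host gene Vmp1 was at 42.5 FPKM in miR-21+/+ against 68.2 FPKM in miR-21-/- glands (0.68), and mRNA sequencing does not measure the mature microRNA. Both mice of a genotype are combined in each value and the number of reads behind it is unknown, so no difference can be set against the spread between mice.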

How the data were processed

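Poly(A) RNA of whole mammary glands from 2 miR-21+/+ and 2 miR-21-/- mice was sequenced by the authors. The submitters' processing notes name CASAVA, TopHat and the mm9 build, the study's methods name Cufflinks, and the deposited table is named as Cuffdiff output. Versions and the annotation are not given in the sources used here. The deposited table gives, per locus, a single FPKM value for each genotype, combined by the authors over both mice, and columns of their own comparison (fold change, statistic, p, q and a call), which were not used. All value columns were mapped to a genotype, and 0 were left unmapped. Depth per sample is unknown.

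The log2 ratio of miR-21-/- over miR-21+/+ FPKM was computed without a pseudocount. Named loci with a mean of at least 1 FPKM and both values above 0 were the background, and a difference was counted past 1.5-fold. With 1 value per genotype no test was run, and FPKM, being per length, was compared between genes. The members, the 6 pathway lists and the 12 marker lists were chosen with earlier results of these data known. Named were all members, the pathway genes past 1.5-fold or at the ends of each list, Stat2, and the 2 most abundant genes of each marker list. Siglech, Spib, the markers that went against their list and the neighbours were named after their values were seen, and Ifi27l1 after it was matched as a synonym. Some genes that the rule names are not reported here.

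Motifs were searched in RefSeq windows (GRCm38.p6), seed matches in 3′ UTRs of GENCODE vM1 (mm9), and similar coding sequences with blastn 2.17.0. Start positions, counted from 0 in the table, are printed from 1. Scripts ran under Python 3.11.15 with numpy 2.4.6, pandas 2.3.3 and matplotlib 3.10.9 and were tested on simulated data. Alternatives were pseudocounts of 1 and 0.1 FPKM, a minimum of 5 FPKM or none, 3 other scalings, limits of 0.32 and 1.00 on the log2 scale in place of 1.5-fold, summing the rows of a name, and leaving out merged loci. Leaving out loci whose test is marked as failed or missing and counting Ifi27l1 as Ifi27 were chosen after seeing the data.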

Additional observations from a re-analysis of the deposited data

How the results depend on the processing

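No paired analysis was possible because both mice of a genotype share 1 combined value, and for the same reason leaving out each mouse in turn and a replicate block were not run. The members at least 1.5-fold lower numbered 4 as deposited. With equal sums over all loci they numbered 35 and the median of the members was −0.91, by construction of a scaling that moves every log2 ratio by −0.63. With equal sums over the named loci 1 member, Iigp1, was at least 1.5-fold higher, and the median was −0.18. With a limit of 0.32 on the log2 scale 17 members were lower and 1 higher, and at 2-fold 1 was lower. Leaving out loci with a failed or missing test removed Oas2 and left 3 of 36, and counting Ifi27l1 as Ifi27 left 4 of 38, both chosen after seeing the data. Under the other alternatives the counts were 4 and 0 and the median stayed between −0.29 and −0.25. Of the 37 single ratios, 2 moved by more than 0.1 on the log2 scale with a pseudocount of 1 FPKM and all 37 with equal sums over all loci. No single ratio past 1.5-fold changed sign, but this outcome was fixed in advance. The 3 scalings shift every log2 ratio by −0.63, 0.10 or 0.01, which cannot turn members at −0.73 or below, and the other alternatives cannot turn a sign. The depth is unknown, so the counting error of members near 2 FPKM, such as Oas3, cannot be given.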

Other observations

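Families of interferon-induced genes outside the 38 listed symbols had unequal ratios. The guanylate-binding proteins, which coat vacuoles that hold pathogens, were below 0 at 7 of 8 loci, beside 55.7% of the named loci, with a median of −0.79. At least 1.5-fold lower were 5 and higher was 1, beside 5.83% and 5.03% of the named loci. On chromosome 5 all 5 were below 0, from −1.49 for Gbp11 (4.95 FPKM with miR-21 and 1.76 FPKM without it) and −1.25 for Gbp10 (7.75 FPKM in miR-21+/+ glands and 3.26 FPKM in miR-21-/- glands) to −0.49 for Gbp9, with Gbp6 at −0.99 and Gbp4 at −0.75. The coding sequences of Gbp6 and Gbp10 are 98.4% identical over 1836 bases, so reads may be shared and the split between the pair is uncertain. On chromosome 3, beside the members Gbp2 and Gbp3, Gbp5 was at −0.84 and Gbp7 at −0.33, while Gbp1 was at 1.06.

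The Ifi200 family, which binds DNA in the cytosol and nucleus, also went both ways, with 3 of 6 loci below 0, beside 55.7% of the named loci. Ifi203 was at 29.6 FPKM in miR-21+/+ against 17.7 FPKM in miR-21-/- glands (−0.74) and Aim2, the DNA sensor of the inflammasome, at 2.81 FPKM with miR-21 and 1.79 FPKM without it (−0.65). Ifi205 was at 47.5 FPKM in miR-21+/+ glands and 75.8 FPKM in miR-21-/- glands (0.67), and its coding sequence is 96.6% identical over 853 bases to Mnda. Of the Schlafen genes, which restrain lymphocyte growth and viral translation, 4 of 5 loci were below 0, beside 55.7% of the named loci. Slfn1 was at 6.60 FPKM in miR-21+/+ against 3.11 FPKM in miR-21-/- glands (−1.08).

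Single genes past 1.5-fold were the secreted glycoprotein Lgals3bp at 184 FPKM with miR-21 and 94.2 FPKM without it (−0.97) and Epsti1 at 8.71 FPKM in miR-21+/+ glands and 3.93 FPKM in miR-21-/- glands (−1.15). Ube2l6, the conjugating enzyme for Isg15, was at 22.6 FPKM in miR-21+/+ against 14.6 FPKM in miR-21-/- glands (−0.64), and the GTPases Irgm2 and Ifi47 were at −0.66 and −0.64, the latter at a locus merged with Olfr56. The authors' test is marked as failed at Gbp4, Gbp6, Gbp9 and Ifi203, and none of these values has a replicate check.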
